A study of Homo sapiens with 8 samples.

Results

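The replication-dependent histone genes are the many small genes that supply histone protein while DNA is copied. Members were chosen by name alone: every array probe whose accession belongs to a gene with an older name starting with HIST1H to HIST4H, or with a current H1, H2AC, H2BC, H3C or H4C number. This gave 76 of the 41000 probes on the array, for 64 of the 16557 genes named there. They were 6 H1, 21 H2A, 20 H2B, 15 H3 and 14 H4 probes.

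L1236 is a cell line from Hodgkin lymphoma with high miR-155. It was transduced with retrovirus carrying either the empty pMSCV-PIG vector (EV) or that vector with a miR-155 sponge, a transcript whose binding sites compete for the microRNA, and GFP-positive cells were sorted. Both populations therefore carry the vector and its GFP. Total RNA (T) and RNA precipitated with an antibody to Argonaute 2 (Ago2, the protein that holds microRNAs and their targets) were taken from each population, which makes the groups EV T, EV IP, sponge T and sponge IP. Each group is 1 RNA sample, labelled once with Cy3 and once with Cy5, on 4 two-colour arrays of 1 slide. No test between groups was possible, no p-value is given, and ± is the SD of 2 technical values (2 dyes, or 2 dye orientations for a ratio of IP to T). It says nothing of how cultures or precipitations vary. The paper reports no clear loss of miR-155 targets from the Ago2 IP of its Hodgkin lines with the sponge. It does report a mild decrease there in the IP enrichment of targets that it found in a Burkitt line overexpressing miR-155. It proposes that the sponge did not hold all of the miR-155. Whether a sponge minus EV difference below comes from miR-155 inhibition was not tested.

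Histones H2A, H2B, H3 and H4 form the core around which DNA is wound, and H1 binds the linker DNA. Most genes for them lie in clusters, and their mRNAs are made in S phase and end in a stem-loop rather than in a poly(A) tail. Many of the core histone genes of a class have closely similar coding sequences, and a probe may also take up transcripts of sister genes. The labelling kit primes on poly(A). The part of either in the values below was not tested.

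Between 54.1% and 65.7% of spots were well above background per channel, the lowest in the Cy5 channel of sponge T. All 6 Hodgkin markers chosen (TNFRSF8, FUT4, IRF4, CCL17, TRAF1 and MIR155HG) stood well above background in each of the 4 T channels, as did 5 of 8 T cell and myeloid markers (CD3E, CD8A, CD4, CD14 and CSF1R). CD3D, LYZ and MPO were so in none.

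Of the 76 histone probes, 72 were well above background in all 8 channels and 4 in none. The 4 were the only H1-6 and H2BC1 probes, 1 of 2 for H2AC11 and 1 of 3 for H2BC21. Another 4 probes, for H2AC1, H2AC8, H4C1 and 1 of 2 for H3C4, differed over 2-fold between Cy3 and Cy5 in at least 1 RNA and were left out. The remaining 68 probes cover 59 genes, with 5 probes for H1, 18 for H2A, 18 for H2B, 14 for H3 and 13 for H4. H1-6, H2BC1, H2AC1, H2AC8 and H4C1 have no kept probe. Histone probes were bright, with a median log2 normalised signal of 14.19 against 9.84 over all 22472 kept probes, and no histone spot was saturated.

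Promoters separate the classes in a way that the choice of members did not use. RefSeq promoters (GRCh38.p14, 250 bases before to 50 after the start) were at hand for 59 of the 64 genes, and H2AC12, H3C11, H3C12, H4C1 and H4C3 had none. The octamer ATTTGCAT, on either strand, stood in 11 of 14 H2A and 13 of 17 H2B promoters but in 1 of 10 H3, 0 of 6 H1 and 0 of 12 H4 promoters, against 1.77% of 35116 promoters. CCAAT, on either strand, stood in every H1, H2A, H2B and H3 promoter, in 3 of 12 H4 promoters and in 34.6% of all. TATAAA, on either strand, stood in 39 of the 59 and in 11.5% of all. In 10 pairs an H2A and an H2B gene lie head to head and their promoters overlap. The same site can therefore count for both genes, and the H2A and H2B counts are not separate. Matches may overlap one another, and a match is a run of letters and not a shown binding site. The promoters printed here, with these letters in capitals, are those of the gene in each class with the largest sponge minus EV difference in T among those with a promoter (H1-2, chr6:26056421-26056720, minus strand, H2AC18, chr1:149842701-149843000, minus strand, H2BC12, chr6:27146809-27147108, minus strand, H3C10, chr6:27809801-27810100, plus strand, and H4C12, chr6:27831511-27831810, minus strand), and that of H2BC4 (chr6:26123877-26124176, minus strand), which reaches into its neighbour H2AC6.
H1-2: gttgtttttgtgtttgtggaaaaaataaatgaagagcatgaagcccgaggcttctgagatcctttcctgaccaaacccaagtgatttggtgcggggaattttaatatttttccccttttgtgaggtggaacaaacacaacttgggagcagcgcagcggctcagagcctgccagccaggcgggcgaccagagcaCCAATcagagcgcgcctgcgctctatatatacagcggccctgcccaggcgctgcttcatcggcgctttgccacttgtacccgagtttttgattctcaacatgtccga
H2AC18: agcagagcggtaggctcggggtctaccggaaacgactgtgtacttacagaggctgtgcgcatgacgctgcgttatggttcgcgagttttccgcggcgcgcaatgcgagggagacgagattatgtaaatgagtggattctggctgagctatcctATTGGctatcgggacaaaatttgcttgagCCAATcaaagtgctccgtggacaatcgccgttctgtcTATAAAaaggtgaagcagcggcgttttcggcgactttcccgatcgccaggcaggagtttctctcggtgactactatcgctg
H2BC12: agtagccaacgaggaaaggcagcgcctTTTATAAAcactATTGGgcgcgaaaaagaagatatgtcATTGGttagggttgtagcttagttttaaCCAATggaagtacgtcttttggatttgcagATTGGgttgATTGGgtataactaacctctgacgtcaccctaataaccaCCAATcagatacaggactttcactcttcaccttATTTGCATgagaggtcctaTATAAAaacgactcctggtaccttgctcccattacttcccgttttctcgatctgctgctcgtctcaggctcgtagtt
H3C10: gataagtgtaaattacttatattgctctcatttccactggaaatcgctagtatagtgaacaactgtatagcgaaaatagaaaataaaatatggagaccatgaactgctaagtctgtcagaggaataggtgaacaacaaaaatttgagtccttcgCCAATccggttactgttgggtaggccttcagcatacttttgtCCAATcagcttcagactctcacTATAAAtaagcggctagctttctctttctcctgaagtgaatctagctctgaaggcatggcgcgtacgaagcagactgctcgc
H4C12: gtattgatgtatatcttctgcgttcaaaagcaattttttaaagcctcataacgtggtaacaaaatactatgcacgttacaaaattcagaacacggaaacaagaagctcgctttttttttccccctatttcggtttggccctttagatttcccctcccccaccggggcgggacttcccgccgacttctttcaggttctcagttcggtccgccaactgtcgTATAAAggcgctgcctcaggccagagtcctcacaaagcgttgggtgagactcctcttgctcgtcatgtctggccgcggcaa
H2BC4: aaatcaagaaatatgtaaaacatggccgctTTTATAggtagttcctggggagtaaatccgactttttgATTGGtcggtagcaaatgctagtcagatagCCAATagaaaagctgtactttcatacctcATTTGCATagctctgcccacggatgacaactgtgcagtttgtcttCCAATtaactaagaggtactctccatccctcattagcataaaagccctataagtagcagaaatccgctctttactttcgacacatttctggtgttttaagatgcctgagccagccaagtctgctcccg

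The median IP/T of the histone probes lay below that of all probes, and the class medians were spread out. In EV cells the median log2 IP/T of the 68 probes was -0.35 ± 0.10, against -0.16 over all kept probes. In sponge cells it was -0.49 ± 0.07 against -0.13. H2A was lowest in EV cells, at -0.81 ± 0.06 over 18 probes, followed by H4 at -0.64 ± 0.17, H1 at -0.43 ± 0.05 and H3 at -0.29 ± 0.01. H2B stood apart at 0.27 ± 0.25, above 0 under each alternative tried. In that order H2A and H4 do not differ beyond the spread of their medians. The SD of the 2 medians understates how far some class values move: the H3 median was -0.20 and -0.21 in the single orientations and -0.14 with 1 probe per gene, and the H1 median -0.25 with a 1.5-fold dye filter. In sponge cells the class medians were -0.87 ± 0.22 for H2A, -0.78 ± 0.01 for H4, -0.52 ± 0.01 for H1, -0.38 ± 0.12 for H3 and -0.01 ± 0.33 for H2B, and the sign of the H2B value turned with the dye orientation and under 4 other alternatives. The H4 median was -0.92 and -0.90 in the single orientations and -1.12 with Cy3 labels alone, the H3 median -0.12 with Cy5 and -0.57 with Cy3 labels alone, and the H1 median -0.22 with the 1.5-fold dye filter.

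**Figure D1:**
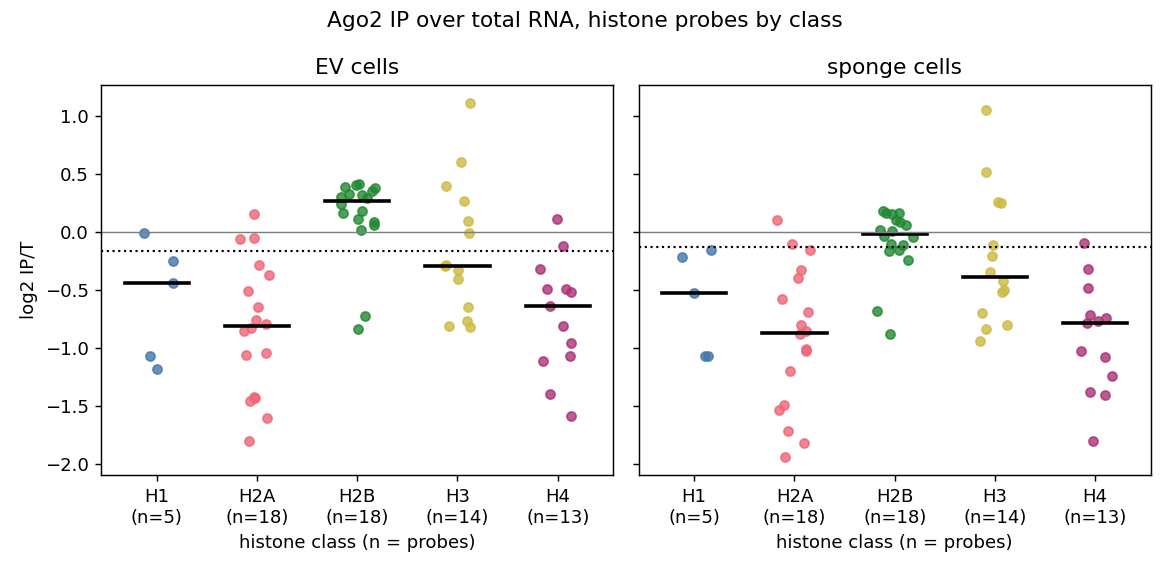
Log2 ratio of Ago2 IP to total RNA (y axis) of each kept histone probe in EV cells (left) and sponge cells (right), by class (x axis). Points are probes (mean of 2 dye orientations), bars class medians and the dotted line the median of all kept probes. H2B sits above the other classes, with a median of 0.27 in EV cells.

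Few histone transcripts were concentrated in the IP. Only 1 of 68 probes, H3-4, reached an IP/T of 2 or more in EV cells, where 17.5% of all probes did, and the same probe was the only one in sponge cells, again against 17.5%. A T/IP of 2 or more was seen for 13 probes in EV cells (19.1%, against 19% of all probes) and for 16 in sponge cells (23.5%, against 17.8%), so that these shares are near the background. By class the 13 were 7 H2A, 4 H4 and 2 H1 probes, with no H2B or H3 probe. With background correction by normexp, loess and between-array quantiles the 13 and 16 became 3 and 6, and with normexp and quantiles 6 and 7. H3-4 no longer reached an IP/T of 2 with the first of these, nor in sponge cells with Cy5 labels alone.

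H3-4 (HIST3H3, chromosome 1), an H3 gene known from testis, had log2 signals in EV cells of 16.06 (Cy3) and 16.26 (Cy5) in T and 17.27 and 17.28 in IP. In sponge cells they were 16.14 and 16.41 in T and 17.32 and 17.33 in IP. IP exceeded T in every channel, without overlap. Log2 IP/T was 1.12 ± 0.15 in EV and 1.05 ± 0.20 in sponge cells. At the low end, H3C11 (HIST1H3I) had -0.82 ± 0.27 and -0.84 ± 0.34, so that H3 held genes on both sides of 0. Between them lay H3C1 (HIST1H3A) at 0.61 ± 0.15, H3C6 at 0.40 ± 0.26 and H3C3 at 0.27 ± 0.22 on the upper side, and H3C10 at -0.80 ± 0.02 and H3C7 at -0.64 ± 0.01 on the lower. H3C1, H3C6, H3C3 and H3-4 are the 4 H3 probes above 0 in both orientations, and 8 were below 0 in both. These are 28.6% and 57.1% of the H3 probes, against 39.1% and 49.9% of all kept probes.

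Among H2A genes, H2AC6 (HIST1H2AC) had the lowest IP/T of all members in EV cells. Its log2 signals in EV cells were 8.80 (Cy3) and 9.32 (Cy5) in T and 7.23 and 7.30 in IP, and in sponge cells 9.07 and 9.56 in T and 7.46 and 7.74 in IP. T lay above IP in all of them, with a log2 IP/T of -1.80 ± 0.42 in EV and -1.72 ± 0.54 in sponge cells. H2AC14 (HIST1H2AJ) was highest in the class, with 0.16 ± 0.26 for its brighter probe and -0.28 ± 0.03 for the other. H4C12 (HIST1H4K) was lowest in H4, at -1.59 ± 0.12, and H4C16 (HIST4H4, chromosome 12), the member outside the large clusters, highest at 0.12 ± 0.42, within its spread of 0. H4C7 (HIST1H4G) at -1.39 ± 0.15, H4C11 at -1.11 ± 0.11 and H4C6 at -1.07 ± 0.17 were the other H4 probes with T at least 2 times IP. All H4 probes but H4C16 lay below 0 in both orientations, 12 of 13 (92.3%, against 49.9% of all kept probes).

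H1 genes ran from H1-1 (HIST1H1A) at -1.18 ± 0.34 and H1-5 (HIST1H1B) at -1.07 ± 0.32 to H1-3 (HIST1H1D) at 0.00 ± 0.29. In H2B the highest was H2BC13 (HIST1H2BL) at 0.42 ± 0.33, and 2 probes lay far below their class: H2BC12 (HIST1H2BK) at -0.72 ± 0.21 and 1 of the 2 kept H2BC21 (HIST2H2BE) probes, A_24_P148321, at -0.84 ± 0.25. The other H2BC21 probe, A_24_P156911, gave 0.17 ± 0.31. Apart from those 2, the H2B probes lay between 0.02 (H2BC4) and 0.42, a narrower band than in H2A, whose probes ran from -1.80 to 0.16. H2B values carried more spread between orientations, and 11 of 18 were above 0 in both (61.1%, against 39.1% of all kept probes).

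The gene clusters had different medians. The 53 probes of the HIST1 cluster (chromosome 6) had a median of -0.29 ± 0.01 in EV cells, and the 11 of the HIST2 cluster (chromosome 1) -0.96 ± 0.09. The 3 probes of the HIST3 cluster, also on chromosome 1, are 1 each of H2A, H2B and H3. Their median, 0.32 ± 0.17, is the value of H2BC26, between H2AC25 at -0.51 and H3-4 at 1.12. Of the 11 HIST2 probes, 6 are H2A probes, 2 each for H2AC18, H2AC20 and H2AC21, and within H2A the medians were -0.65 ± 0.07 for HIST1 and -1.42 ± 0.13 for HIST2. Brighter probes had a higher IP/T: over the 68 probes in EV cells Pearson's r with the mean signal was 0.54 and Spearman's rho 0.50, while over all kept probes both were near 0 (0.01 and 0.01). By class Pearson's r was 0.92 for H1 (5 probes), 0.82 for H2A, 0.76 for H2B, 0.70 for H3 and 0.29 for H4. The mean signal holds the same IP and T values that make up IP/T. These correlations are descriptions across probes that share arrays and near-identical sequence.

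**Figure D2:**
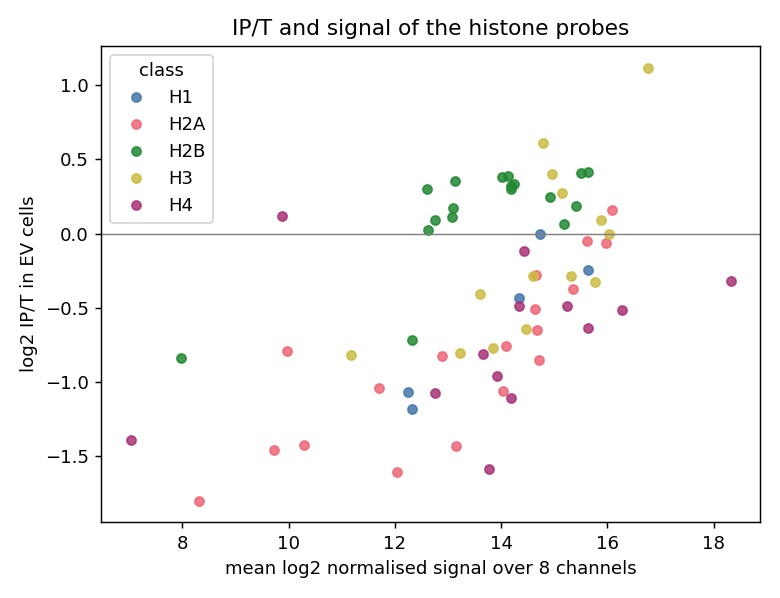
Log2 IP/T in EV cells (y axis) against the mean log2 normalised signal over the 8 channels (x axis) for the 68 kept histone probes, coloured by class. Brighter probes lie higher (Pearson's r 0.54), and H3-4 stands alone above 1.

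In total RNA, histone transcripts were more abundant in sponge than in EV cells. The median log2 sponge minus EV difference in T was 0.27 ± 0.03 over the 68 probes against -0.02 over all, a 1.21-fold higher level. With 1 bulk RNA per group, more S phase cells, more histone RNA per cell and differences in preparation or labelling cannot be told apart. T was higher in both dyes for 59 of 68 probes (86.8%, against 28.5% of all probes) and lower in both dyes for 0. A T level higher by 0.32 or more on the log2 scale, with the same sign in both dyes, was seen for 28 of 68 (41.2%, against 6.44%), and one lower by that much for 0 (against 6.95%). Between 26 and 34 probes passed that limit under the alternatives. H4C9 at 0.33 was just past it and H2BC10 at 0.31 just short.

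The class medians in T were 0.42 ± 0.06 for H2B, 0.30 ± 0.05 for H4, 0.26 ± 0.01 for H2A, 0.19 ± 0.01 for H1 and 0.14 ± 0.13 for H3. With Cy3 alone the H3 median was 0.28, so that the order of the lower classes depends on the dye. H2B supplied 14 of the 28 probes, from 18 kept, and its lowest probe still stood at 0.26. H4 supplied 6 of 13, H2A 5 of 18, H3 2 of 14 and H1 1 of 5. All 18 H2A probes were higher in both dyes.

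**Figure D3:**
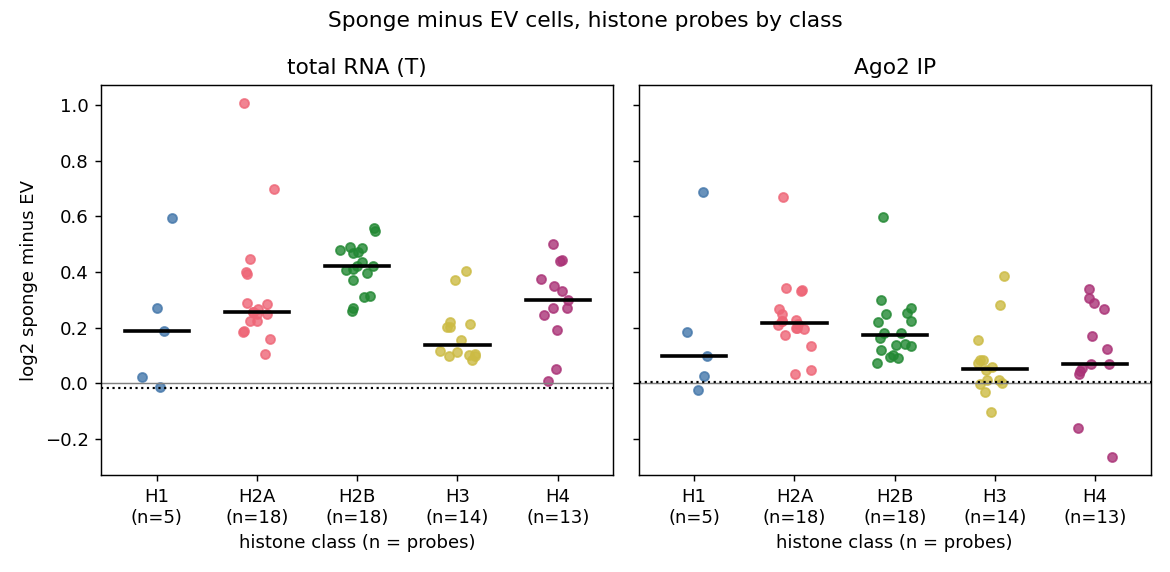
Log2 sponge minus EV difference (y axis) of each kept histone probe in total RNA (left) and in Ago2 IP (right), by class (x axis). Points are probes (mean of Cy3 and Cy5), bars class medians and the dotted line the median of all kept probes. In total RNA the H2B median is 0.42 and nearly all points lie above 0, and in IP the medians over both dyes are lower than in total RNA, but not with Cy5 alone for H2A (0.25 in total RNA, 0.28 in IP) and H1 (0.18 and 0.21).

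H2AC18, an H2A gene of the HIST2 cluster with a near-identical sister copy, had the largest difference. For probe A_23_P103981 the T signals were 12.29 (Cy3) and 12.54 (Cy5) in EV and 13.18 and 13.67 in sponge cells, and the IP signals 10.86 and 10.77 in EV and 11.54 and 11.42 in sponge cells. Sponge cells were higher in both RNAs, without overlap. The difference was 1.01 ± 0.17 in T, the 1 histone value past 2-fold (1.47%, against 0.409% of all probes), and 0.67 ± 0.02 in IP. It was 0.89 with Cy3 alone, short of 2-fold, and no histone probe reached 2-fold with either normexp background correction. The second probe gave 0.70 ± 0.09 in T and 0.33 ± 0.27 in IP.

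H1-2 (HIST1H1C), a linker histone gene, gave T signals of 15.42 (Cy3) and 15.47 (Cy5) in EV and 15.95 and 16.12 in sponge cells, and IP signals of 15.23 and 15.17 in EV and 15.92 and 15.85 in sponge cells. Sponge cells were again higher in each, by 0.59 ± 0.09 in T and 0.69 ± 0.00 in IP. The other H1 genes lay lower in T, H1-4 at 0.27 ± 0.02, H1-3 at 0.19 ± 0.01, H1-5 at 0.02 ± 0.26 and H1-1 at -0.01 ± 0.24.

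H2BC12 led H2B. Its log2 signals, as means of both dyes, were 12.39 ± 0.15 in EV T, 12.95 ± 0.13 in sponge T, 11.67 ± 0.06 in EV IP and 12.27 ± 0.05 in sponge IP. The difference was 0.56 ± 0.02 in T and 0.60 ± 0.00 in IP, without overlap of the cell populations. H4C12 had T signals of 14.36 and 14.37 in EV and 14.88 and 14.84 in sponge cells, a difference of 0.50 ± 0.04, with 0.29 ± 0.02 in IP. H4C11 and H4C6 followed in T, each at 0.44, with SDs of 0.08 and 0.07. H2BC3 (HIST1H2BB), next to H2BC12 among H2B genes, gave 0.55 ± 0.06 in T and 0.25 ± 0.16 in IP. H2AC16, H2AC4 and H2AC7 followed H2AC18 among H2A genes, at 0.45 ± 0.09, 0.40 ± 0.03 and 0.39 ± 0.04 in T. H3C11 led H3, with 0.40 ± 0.07 in T and 0.39 ± 0.00 in IP.

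Not every probe was the same in both dyes. In T, 8 probes were higher in sponge cells with Cy3 and lower with Cy5: 4 H3, 2 H4 and 2 H1 probes. Only 1, the dim H2BC21 probe, went the other way. One of the 8, H4C5 (HIST1H4E), gave 0.26 with Cy3 and -0.24 with Cy5. The Cy5 channel of sponge T is the one with the fewest spots above background, and its part in these values was not tested. Over the 68 probes the T difference in Cy3 and in Cy5 had Pearson's r of 0.59.

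**Figure D4:**
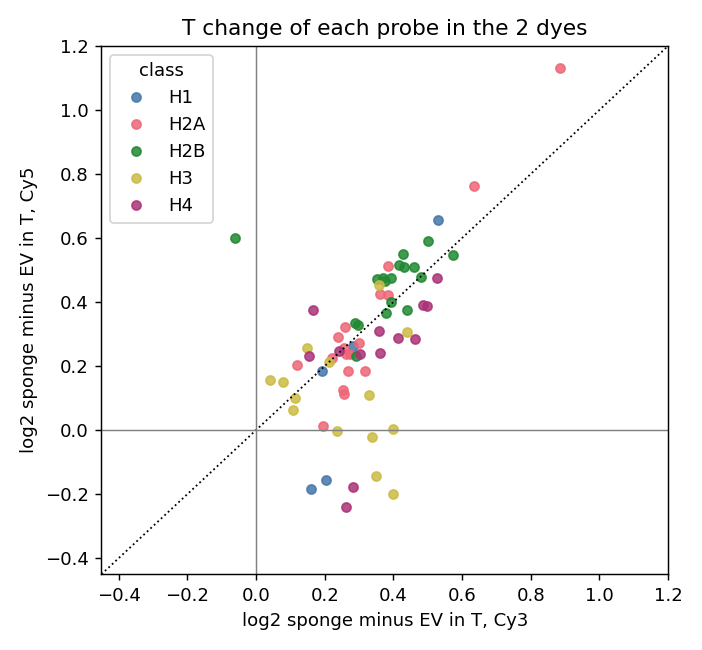
Log2 sponge minus EV difference in total RNA measured with Cy3 (x axis) and with Cy5 (y axis), 1 point per kept histone probe, coloured by class, with the line of equality dotted. Of 68 points 59 are above 0 on both axes, and 8 are above 0 with Cy3 and below it with Cy5.

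In the Ago2 IP the same comparison gave a smaller median. The median was 0.16 ± 0.08 over the 68 probes against 0.01 over all. IP was higher in both dyes for 51 probes (75%, against 37.8%), and higher by 0.32 or more on the log2 scale for 8 (11.8%, against 5.98%). None was lower by that much (against 5.27%), and none changed 2-fold (against 0.151%). The 8 were both H2AC18 probes and those of H1-2, H2BC12, H3C11, H2AC7, H4C7 and H2AC6. The second H2AC18 probe at 0.33 was just past the limit and H4C14 at 0.31 just short. With normexp background correction 3 probes passed, and with Cy5 labels alone 14. The class medians in IP were 0.22 ± 0.09 for H2A, 0.17 ± 0.09 for H2B, 0.10 ± 0.16 for H1, 0.07 ± 0.03 for H4 and 0.05 ± 0.01 for H3. The H1 median was -0.02 with Cy3 alone.

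A few probes were lower in the IP of sponge cells, 5 of 68 in both dyes (7.35%, against 35.7% of all kept probes). H4C5 was lowest, with IP signals of 14.97 (Cy3) and 15.14 (Cy5) in EV and 14.81 and 14.76 in sponge cells, a difference of -0.27 ± 0.16. H4C16 gave -0.16 ± 0.16, H3C4 (HIST1H3D, the kept probe) -0.10 ± 0.02, H3C8 -0.03 ± 0.04 and H1-3 -0.02 ± 0.02. H4C7 (HIST1H4G), the H4 gene with the largest IP difference, gave 0.34 ± 0.35 and was the dimmest member kept.

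IP/T was therefore lower in sponge than in EV cells for most members. The median change was -0.16 ± 0.03 against 0.02 over all probes, and 46 of 68 probes were lower in both orientations (67.6%, against 28.8%). By class the change was -0.23 ± 0.12 for H2B (16 of 18 lower in both), -0.20 ± 0.01 for H4 (11 of 13), -0.11 ± 0.04 for H3 (9 of 14), -0.06 ± 0.07 for H2A (8 of 18) and 0.00 ± 0.07 for H1 (2 of 5). The H3 value turned to 0.026 with Cy5 labels alone. The change is built from the same T and IP values as above and is not a separate measurement. Which probe changed more was not repeatable, since the 2 orientations had Pearson's r of 0.01 over the 68 probes.

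H2A and H2B genes often lie head to head and share the stretch between their starts. The RefSeq promoters hold 10 such pairs, with starts on opposite strands at most 500 bases apart, and in 8 both genes were kept. The starts of these 8 lie 194 to 248 bases apart. In EV cells the H2B gene had the higher IP/T in all 8 pairs, by a median of 0.77 on the log2 scale (0.14 to 1.82), and in sponge cells in 7 of 8. The exception in sponge cells was H2AC11 at -0.099 with H2BC11 at -0.101. With IP in Cy3 alone these counts were 7 and 6 of 8. By that orientation H2AC14 lay above H2BC14 in both cell populations, and H2AC11 above H2BC11 in sponge cells. The H2B gene also had the larger T difference in all 8, in each dye, by a median of 0.19 (0.08 to 0.30). In IP the H2B difference was the larger in 4 of 8. The class medians over all kept probes differed in the same direction: 0.27 for H2B against -0.81 for H2A in EV IP/T, and 0.42 against 0.26 in T. The pair counts therefore restate the class difference, at least in part. Other pairings of H2A with H2B genes were not compared. The widest pair was H2AC6 with -1.80 and H2BC4 with 0.02 in EV cells, whose shared stretch is printed above as the H2BC4 promoter. H2AC7 and H2BC7 gave -0.75 and 0.41.

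**Figure D5:**
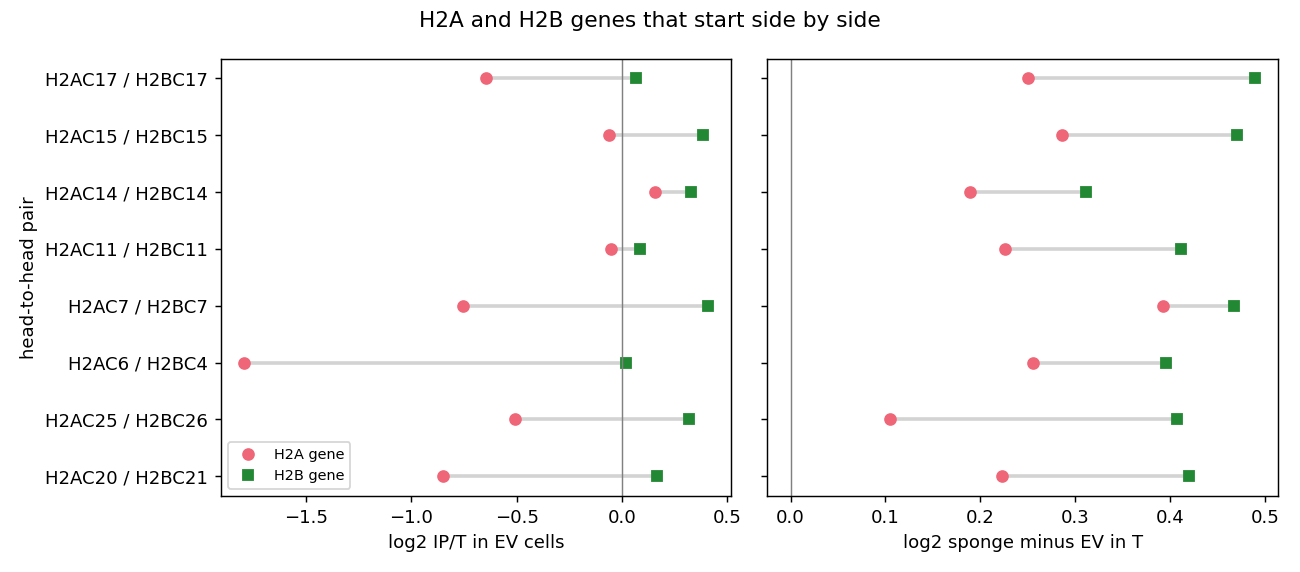
Log2 IP/T in EV cells (left) and log2 sponge minus EV difference in total RNA (right) on the x axes for the 8 head-to-head pairs (y axis), with the H2A gene as a circle and the H2B gene as a square (brightest kept probe of each, mean of 2 values). The H2B gene lies to the right in all 8 pairs on both sides, as a mean of the 2 values.

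Genes of a class with and without the octamer in the promoter were set side by side, with no test. The 12 H2B genes with ATTTGCAT in the promoter had a median T difference of 0.44 (0.31 to 0.56), and the 4 without it 0.42 (0.26 to 0.47). Among H2A genes the medians were 0.25 with it (9 genes) and 0.29 without (3 genes, H2AC18 among them). Log2 IP/T in EV cells had a median of 0.22 (-0.72 to 0.41) for the H2B genes with the octamer and 0.37 (0.32 to 0.42) for those without it. For H2A genes it was -0.79 (-1.80 to 0.16) with it and -0.51 (-1.60 to -0.06) without.

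Probes for the same gene were compared for the 9 genes with more than 1 kept probe. Their EV log2 IP/T differed by 0.14 (H2BC6) to 1.01 (H2BC21), with H2AC20 at 0.58, H3C15 and H2AC14 at 0.44, H2AC21 at 0.36, H3C2 at 0.28, H2AC17 at 0.18 and H2AC18 at 0.15 between. The T difference was closer, 0.02 to 0.31 apart, and the widest was H2AC18.

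Replication-independent histone genes, most of which make polyadenylated mRNAs outside S phase too, were compared with these members by their medians. With 1 probe per gene, the medians over 11 genes were -0.25 for log2 IP/T (EV cells) and 0.05 for the T difference, against -0.32 and 0.29 for the 59 replication-dependent genes. In sponge cells the median log2 IP/T was 0.12 ± 0.24 over the 11 genes and -0.42 ± 0.14 over the 59. The median change in IP/T was 0.07 over the 11 genes and -0.17 over the 59. The median IP difference was 0.18 over the 11 genes and 0.14 over the 59. T was higher by 0.32 or more for 2 of the 11, against 6.44% of all kept probes. IP was higher by that much for 4 of the 11, against 5.98% of all kept probes and 8 of the 68 replication-dependent probes. H3-3A, a gene for H3.3, had the largest IP/T, 1.41 ± 0.12 in EV and 1.27 ± 0.19 in sponge cells, and H2AB2 the largest differences, 0.52 ± 0.08 in T and 0.53 ± 0.03 in IP.

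Other genes of S phase and of histone mRNA synthesis lay near the median of all probes in T. In EV cells their IP/T was about as low as that of the histone genes. The median log2 IP/T in EV cells was -0.33 over 43 S phase genes and -0.41 over 26 factors of histone transcription and mRNA processing, against -0.32 over the 59 histone genes. In sponge cells these medians were -0.29, -0.28 and -0.42. Over the 43 S phase genes the median T difference was 0.01, and 0 were higher in T by 0.32 or more (against 6.44% of all kept probes). The largest was POLE, a DNA polymerase subunit, at 0.26 ± 0.31. The median IP difference over the 43 genes was 0.09, and 26 were higher in both dyes (60.5%, against 37.8% of all kept probes). Their median change in IP/T was 0.10, and 25 were higher in both orientations (58.1%, against 35.1%). The largest absolute IP difference of that list was a fall, GINS1 at -0.37 ± 0.08. CCNE1, cyclin E1, had the largest IP/T at 2.87 ± 0.24 in EV and 2.63 ± 0.36 in sponge cells. Over the 26 factors the median T difference was -0.07, with 0 higher and 2 lower by 0.32 or more (against 6.44% and 6.95%). Their median IP difference was 0.02 and their median change in IP/T 0.03. NPAT, the coactivator of histone genes, had the largest T difference of the list, -0.40 ± 0.03. NFYC, a subunit of the factor that binds CCAAT, had the largest IP/T in EV cells, 2.64 ± 0.36, and the largest IP difference, -0.40 ± 0.16. TENT4A had the largest in sponge cells, 2.45 ± 0.17.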

How the data were processed

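The 8 labelled samples, Cy3 and Cy5 of 4 RNAs, were measured on 4 two-colour Agilent arrays. The authors deposited scanner files holding spot intensity, background-subtracted and dye-corrected per the file headers by Feature Extraction 10.7.3.1 (the submitters' processing notes name 10.5.1.1), and a table of log2 values, which the authors had quantile normalised and filtered. Both samples of an array carry identical files, so each sample was read in the channel of its label. Flag columns were used as deposited. No mean signal column was used, so normexp was run on median signals (offset 50).

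Control and outlier spots were dropped, spots of a probe averaged, and log2 processed signals quantile normalised over the 8 channels. Probes well above background in at least 4 channels (25830 of 41000) whose Cy3 and Cy5 differed by at most 2-fold in each RNA were kept, 22472 in all. In 1 channel or more, 60 probes lacked a value. Symbols came from RefSeq through accessions, for 23958 probes. The array's annotation is hg18 and the promoters GRCh38.p14, and no coordinates were converted.

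Log2 IP/T was averaged over dye orientations and log2 sponge minus EV over dyes. A class value is the median over its probes, and its SD that of the 2 medians. With 1 RNA per group no test was made, and the number of arrays limits precision. Members and lists were chosen with earlier results of these data known. Named genes were, per class with the brightest probe per gene, the highest and lowest EV IP/T and the largest differences of the same sign in both dyes, every probe past 2-fold, every gene with more than 1 kept probe, every gene without one and, per comparison list, the largest absolute value. Other genes that are named were chosen after their values were seen. A sponge minus EV difference was counted from 0.32 on the log2 scale, and only with the same sign in both dyes. Alternatives were other normalisations, filters, dyes, orientations, 1 probe per gene and means. The calculation was tested on simulated data. Python 3.11.15, pandas 2.3.3, numpy 2.4.6, R 4.3.3 and limma 3.58.1 were used.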

Additional observations from a re-analysis of the deposited data

Results flagged for a closer look

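H1-3 was higher in T of sponge cells in both dyes (0.19) and lower in IP in both (-0.02). The difference between T and IP was not tested.

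Histone probes left out because Cy3 and Cy5 differed over 2-fold still gave signal in all 8 channels. Their lowest processed signal was 20684 for H3C4, 4154 for H2AC8, 866 for H4C1 and 126 for H2AC1, against a median of at most 10.98 in the negative control spots. Their T differences were 0.01 ± 0.50 for H3C4, 0.44 ± 0.52 for H2AC8, 0.54 ± 0.68 for H4C1 and 0.36 ± 0.35 for H2AC1.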

How the results depend on the processing

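The 5 medians over the histone probes kept their sign under all 16 alternatives. They ran from -0.45 to -0.28 for IP/T in EV cells, -0.58 to -0.38 in sponge cells, 0.25 to 0.32 for the T difference, 0.10 to 0.21 for the IP difference and -0.23 to -0.093 for the change in IP/T. IP/T in sponge cells was -0.39 with normexp, loess and between-array quantiles, -0.38 with normexp and quantiles, -0.41 with a 1.5-fold dye filter and -0.58 from arrays with IP in Cy3. Those normexp settings moved the median of all probes in EV cells by 0.17 and 0.12, and relative to it histone IP/T was -0.28 and -0.30, against -0.19 as reported. Over probes detected in all 8 channels it was -0.14, with a 1.5-fold dye filter -0.14 and with Cy3 labels alone -0.13, close to the SD of 0.10 of the histone median. The T difference was 0.32 with 75th percentile scaling, 0.32 from arrays with IP in Cy5 and 0.31 as a mean. The change in IP/T was -0.19 with 75th percentile scaling and -0.11 from arrays with IP in Cy5. With 1 dye alone the change ran from -0.23 to -0.093 and the T difference from 0.28 to 0.32.

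Counts moved more. With normexp, loess and between-array quantiles, IP/T of 2 or more was met by 0 probes in EV and 0 in sponge cells, T/IP of 2 or more by 3 and 6, an IP higher by 0.32 or more by 3 and a 2-fold T change by 0. With normexp and quantiles these were 6 and 7 for T/IP, 3 for IP and 0 for T. Arrays with IP in Cy3 gave 0 probes with IP/T of 2 or more in sponge cells. Arrays with IP in Cy5 gave 14 with a higher IP, 1 with a lower IP and 0 with a 2-fold T change. With 1 dye alone IP/T of 2 or more in sponge cells was met by 0 to 1, a higher IP by 6 to 14, a lower IP by 0 to 1 and a 2-fold T change by 0 to 1. Without the H2AC18 probes, an alternative chosen after seeing the data, the last was 0. The H3 change in IP/T turned from -0.11 to 0.026 with Cy5 labels alone. The cause was not tested. No paired analysis was possible because each group is 1 RNA and the replicate numbers only name the dye. Adding probes named by another annotation column was not run.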
